A study of Mus musculus with 2 samples.

Results

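The PAF1 complex and 4 other factors that act on elongating RNA polymerase II (Pol II) are described here by the reads of 10 genes. These are the PAF1 complex subunits Paf1, Cdc73, Ctr9, Leo1, Rtf1 and Wdr61, and the elongation factors Supt5, Supt6, Cdk9 and Hexim1. They were chosen by name, and each matched 1 row of the count tables, so 10 of 47643 counted genes are covered. The reads come from mRNA-seq of cortical progenitors taken from the cortex of wild-type E14 mouse embryos, electroporated with non-targeting (siCtl) or Phf6 (siPhf6) small interfering RNAs, and cultured for 5 days. The labels give the same tissue, genotype, culture time and male sex for both groups. Each group is 1 library, so no difference has a replicate check, and what is compared is a pair of libraries rather than a pair of conditions. The study's methods describe several samples per group, and whether a library holds 1 culture or a pool is not given in the sources used here.

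PHF6 is a chromatin protein with PHD-type zinc fingers that was found in association with the PAF1 complex, and the values below give how the genes of that complex and its partners differed in reads between the knockdown and control libraries. Pol II stops shortly after it starts on most genes, held by the factors DSIF and NELF. The kinase P-TEFb, made of CDK9 and a cyclin T, phosphorylates these factors and the tail of Pol II and so lets the polymerase proceed, while HEXIM1 keeps P-TEFb inactive in a particle built on the 7SK RNA. The PAF1 complex then travels with Pol II, helps it through chromatin and recruits the enzymes that ubiquitinate histone H2B, and SPT6 rebuilds nucleosomes behind it.

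The reads of the targeted gene differed in the direction of the labels. On chromosome X, Phf6 had 1420 reads in the control and 310 in the knockdown library. Scaled to 1000000 gene reads (RPM) these are 117 and 29.4, and the log2 ratio of siPhf6 over siCtl was -1.99 (95% counting interval -2.17 to -1.81). The libraries held 12155311 and 10561757 reads in genes. Of the counted genes, 10130 had at least 150 reads in at least 1 library and were kept, and all 10 genes of interest were among them. A gene was called higher or lower when an exact binomial test on the reads of both libraries passed a false discovery rate (FDR) of 0.01 and its log2 ratio was past 0.25 in size. Intervals cover counting error only. For scale, the robust SD of the log2 ratio was 0.17 among the 1522 kept genes whose reads in the libraries added up to more than 4000, where counting error is small.

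The label of cortical progenitors was checked against marker genes. The 6 markers of postmitotic neurons had 1249 to 10650 reads in siCtl and 1155 to 10391 in siPhf6, the most in Map2. The 8 radial glia markers had 8 to 1855 reads in siCtl and 16 to 1960 in siPhf6, the most in Vim. Among them Pax6, with 121 and 120 reads, fell under the read minimum. These reads are not corrected for transcript length. Of 8 radial glia markers 5 were kept, of which 4 were called higher in siPhf6 and none lower, and their summed level was 342 RPM in siCtl and 471 in siPhf6. Of 4 markers of dividing cells, 2 were kept and both were called higher, with sums of 24.4 and 54.6 RPM. Of 5 markers of the oligodendrocyte lineage, 2 were kept and both were called higher, with sums of 37.1 and 62.6 RPM. Of 3 markers of intermediate progenitors only Btg2 was kept, and it was called higher (83.2 and 119 RPM), so that it makes up most of the list's sums of 87.9 and 123 RPM. Their defining factors had few reads, 9 and 20 for Eomes and 48 and 22 for Neurog2. All 6 markers of postmitotic neurons were kept and none was called, with sums of 2398 and 2472 RPM. Astrocyte markers (1 of 3 kept called higher), microglial markers (none of 4 kept) and vascular markers (none of 2 kept called) summed to at most 79.5, 5.02 and 54.8 RPM, and the endothelial Cldn5 had 0 reads in both libraries. The part of cell make-up in the values below was not tested, and in such bulk samples fewer cells of a type and less RNA per cell cannot be told apart.

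Upstream sequence was available in RefSeq (build GRCm38.p6) for 8 of the 10 genes, as windows of 250 bases before the transcription start. For Ctr9 and Wdr61 none is shown. The starts are those of RefSeq. By the gene positions of GENCODE, which can begin further upstream, the windows of Supt6 and Cdk9 lie within the gene. Those of Paf1, Supt5 and Hexim1 reach into it. The windows of Cdc73, the only one of the 10 genes called between the libraries, and of Paf1, the subunit that names the complex, are printed to show how differently the upstream regions of genes of 1 complex are composed. That of Polr2m, the elongation gene with the lowest ratio of all those listed further on, is printed beside them. Cdc73 lies on chromosome 1 on the minus strand (window at chr1:143702894-143703143), Paf1 on chromosome 7 on the plus strand (chr7:28392746-28392995) and Polr2m on chromosome 9 on the minus strand (chr9:71485984-71486233, the first of the starts listed for it). Capitals mark matches to the GC box GGGCGG on either strand.
Cdc73: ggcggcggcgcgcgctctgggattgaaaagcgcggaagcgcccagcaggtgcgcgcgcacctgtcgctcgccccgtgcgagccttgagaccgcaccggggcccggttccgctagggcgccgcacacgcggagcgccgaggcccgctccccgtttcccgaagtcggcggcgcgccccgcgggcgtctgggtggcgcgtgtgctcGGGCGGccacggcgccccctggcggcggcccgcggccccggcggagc
Paf1: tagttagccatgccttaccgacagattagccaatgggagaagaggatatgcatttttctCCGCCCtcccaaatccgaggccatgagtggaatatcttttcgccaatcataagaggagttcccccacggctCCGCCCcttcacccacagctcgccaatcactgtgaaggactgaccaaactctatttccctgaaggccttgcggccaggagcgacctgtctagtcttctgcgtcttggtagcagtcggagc
Polr2m: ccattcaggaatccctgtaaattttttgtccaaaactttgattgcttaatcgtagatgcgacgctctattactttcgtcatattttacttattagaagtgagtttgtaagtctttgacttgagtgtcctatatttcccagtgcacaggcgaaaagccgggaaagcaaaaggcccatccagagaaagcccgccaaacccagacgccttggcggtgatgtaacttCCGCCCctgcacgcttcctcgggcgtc

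The Cdc73 window is 80.4% G and C, the highest of the 8, and that of Paf1 is 53.6%, the lowest; the median over all 32851 windows of this kind is 52.4%. The GC box occurred in the windows of 7 of the 8 genes (all but Supt6) and in 32.7% of all windows. The CCAAT box (CCAAT on either strand) occurred in those of 3, Paf1, Cdk9 and Hexim1, and in 33.8% of all. Paf1 has 3 matches to it and Cdc73 none. The TATA box letters TATAAA and the CA repeat letters CACACACA, the latter searched because the study examined CA repeats at PHF6 sites, occurred in none of the 8 windows on either strand, against 12.4% and 3.55% of all windows. The Polr2m window, at 46.8% G and C, holds 1 GC box and none of the other motifs. None of the motifs contains another, and a match is a description of the sequence alone.

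Cdc73 had a higher level in siPhf6 than in siCtl, Ctr9, Leo1 and Rtf1 had slightly lower levels that did not reach a call, and the other 6 genes differed by no more than counting error. Of the 10 genes 1 was called higher and none lower. Over all kept genes, 25.9% were called, 13.4% higher and 12.4% lower. Log2 ratios of the other 9 genes lay between -0.18 and 0.01, and the median of all 10 was -0.05, beside 0.01 for all kept genes, whose quartiles were -0.16 and 0.16. Both values are differences on the log2 scale of RPM with 1 read added to each count. Ratios of Wdr61, Supt5 and Supt6 were so close to 0 that their sign changed with the scaling of the libraries or the trend subtracted.

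**Figure D1:**
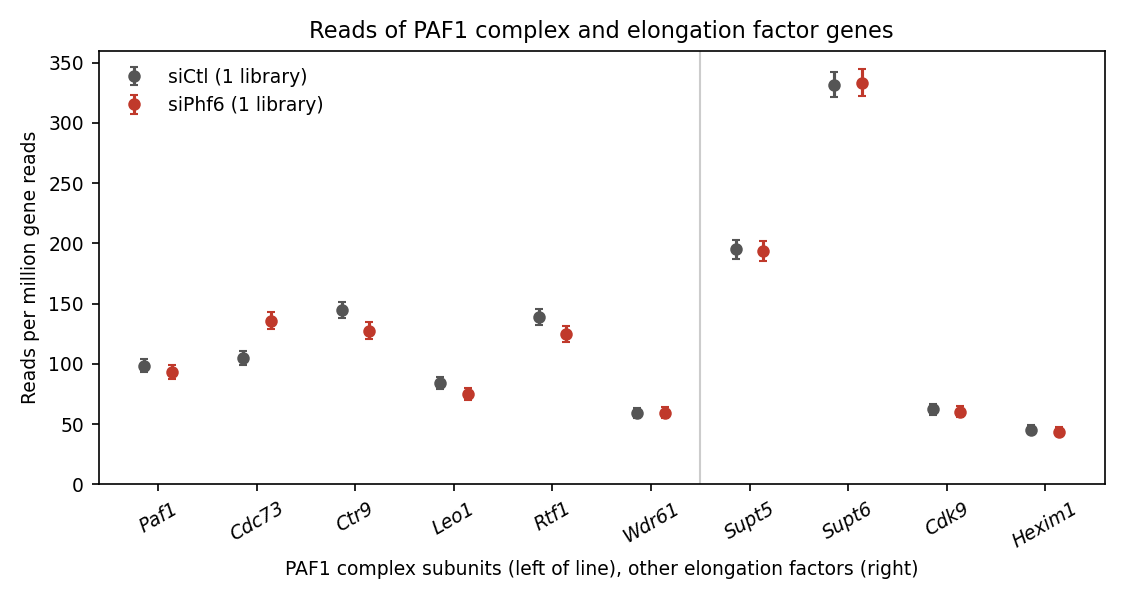
Level in RPM (vertical axis, from 0) of the 10 genes in the siCtl and siPhf6 libraries, 1 library each; bars are exact 95% Poisson intervals of the counts. Cdc73, at 105 RPM in siCtl and 135 in siPhf6, is higher in siPhf6 with bars that do not overlap. Ctr9 and Rtf1 are lower with bars that do not overlap. Supt6, at 331 and 333 RPM, has the highest RPM in each library, a measure not corrected for transcript length.

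Cdc73 encodes parafibromin, the subunit that carries a Ras-like fold and links the PAF1 complex to other regulators. It had 1275 reads in siCtl and 1431 in siPhf6, or 105 and 135 RPM. Its log2 ratio was 0.37 (95% counting interval 0.26 to 0.48), 129% of the siCtl level, and it was called higher. Among all kept genes 17.9% had a log2 ratio at least as far from 0, and 9.13% had a higher one. The difference is thus about as large as many others between these libraries, and its call was lost when a spread between cultures was assumed: with a coefficient of variation of 0.05 the interval ran from 0.14 to 0.60, and with 0.1 from -0.05 to 0.78. Its value stayed between 0.36 and 0.42 under all scalings, filters and trends tried.

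The Cdc73 gene, on chromosome 1 of mm10 from 143598800 to 143702893, shares 679 bases of its exons (3.86%) with B3galt2, a galactosyltransferase gene on the opposite strand. B3galt2 was called lower, with 1614 reads in the control and 784 in the knockdown library (-0.84, -0.96 to -0.71). Reads from the TruSeq v2 kit carry no strand, and those in the shared bases could come from either gene. How such reads were assigned is not given in the sources used here. No stretch of 100 or more bases of the principal Cdc73 transcript matched another gene at 95% identity or above. The neighbouring gene thus moved the other way from Cdc73, and its part in the Cdc73 count was not tested. The annotated exons of Cdc73 cover 17613 bases, the most of the 10 genes. Its longest transcript is 36.8% G and C, the most AT-rich of the 10.

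Within each library the ratio of Cdc73 to the other genes is free of the library scaling. That ratio was higher in siPhf6 against every one of them. Since Cdc73 had the highest log2 ratio of the 10, this had to follow, and the ratios below restate its difference rather than check it. Cdc73 had 1.07 times the reads of Paf1 in siCtl and 1.46 times in siPhf6, a change in the ratio of 1.37 (95% counting interval 1.22 to 1.53). Against Ctr9, the change was 1.46 (1.32 to 1.63), the largest of the 9, and against Supt6 1.28 (1.17 to 1.40), the smallest. The other subunits kept closer ratios to Paf1, with changes of 0.94 (0.83 to 1.07) for Leo1, 0.93 (0.83 to 1.04) for Ctr9, 0.95 (0.85 to 1.07) for Rtf1 and 1.06 (0.93 to 1.22) for Wdr61, and all 4 intervals include 1.

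Paf1, the subunit that anchors the complex with LEO1, had 1196 reads in siCtl and 983 in siPhf6, or 98.4 and 93.1 RPM. Its log2 ratio was -0.08 (-0.20 to 0.04) and it was not called. The gene lies on chromosome 7 from 28392951 to 28399388, 54204 bases from Supt5 on the same chromosome, and these neighbours both had ratios within counting error of 0.

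Ctr9, the scaffold of repeated helices that holds the other subunits, had 1756 and 1347 reads, or 144 and 128 RPM. Its log2 ratio of -0.18 (-0.28 to -0.08) was the lowest of the 10. The counting interval excludes 0, but the ratio is smaller than the limit for a call, and 45.2% of kept genes had one at least as far from 0.

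Leo1, which forms a pair with PAF1, had 1022 and 791 reads, or 84.1 and 74.9 RPM, a log2 ratio of -0.17 (-0.30 to -0.03). Rtf1, which stimulates ubiquitination of histone H2B, had 1684 and 1319 reads, or 139 and 125 RPM, and a ratio of -0.15 (-0.25 to -0.04). Neither was called. Ctr9, Leo1 and Rtf1 thus stood at 88.3% to 90.2% of the siCtl level, and 45.2% to 52.5% of kept genes had ratios at least as far from 0.

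Wdr61, a ring-shaped WD-repeat subunit that is shared with the Ski complex of RNA decay, had 719 and 628 reads, or 59.2 and 59.5 RPM. Its log2 ratio was 0.01 (-0.15 to 0.16). On the opposite strand Dnaja4, a co-chaperone gene, overlaps 1581 bases of the annotated exons of Wdr61 (33.9% of them). Dnaja4 was called higher, from 227 to 273 reads (0.47, 0.21 to 0.73). No stretch of 100 or more bases of the principal Wdr61 transcript matched another gene at 95% identity or above. How reads in the shared bases were assigned is not given in the sources used here. Their part in the Wdr61 count was not tested.

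**Figure D2:**
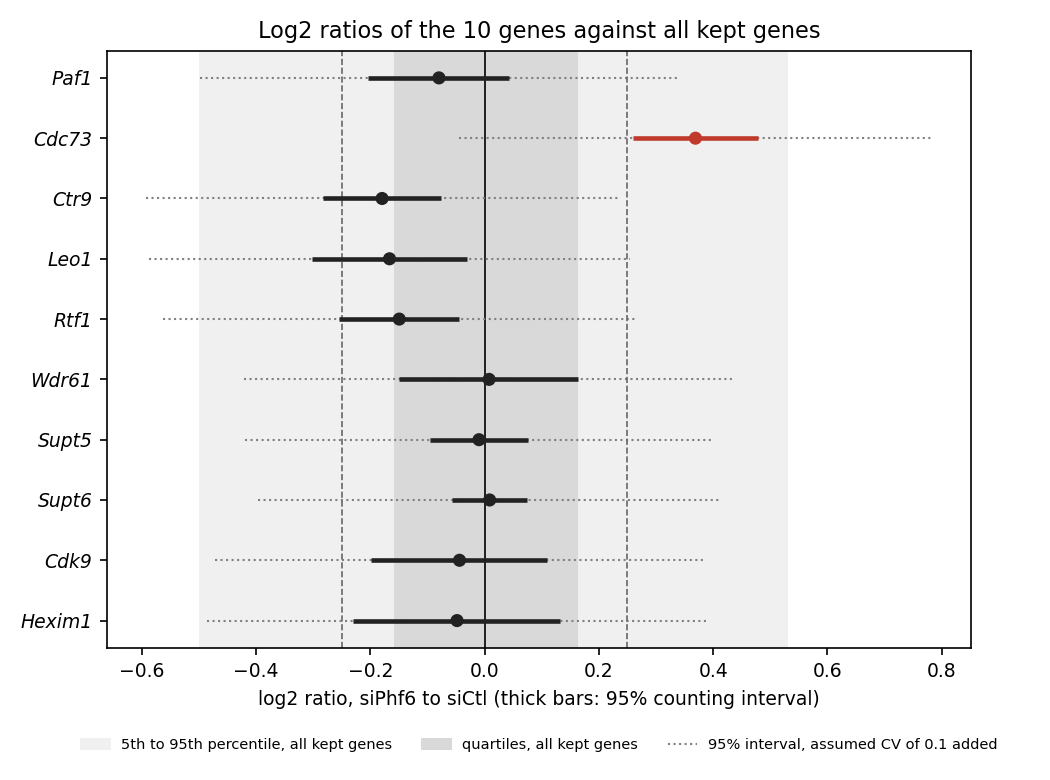
Log2 ratio, siPhf6 over siCtl, on the horizontal axis, of the 10 genes; thick bars are 95% counting intervals, dotted bars add an assumed coefficient of variation (CV) of 0.1, dashed lines stand at the limit of 0.25 and grey bands show all 10130 kept genes. Cdc73 (red, 0.37) is the only gene past the limit; its dotted bar, from -0.05 to 0.78, crosses 0.

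Summed over the 6 subunits, the complex had 7652 reads in siCtl and 6499 in siPhf6, or 630 and 615 RPM. The log2 ratio of the sum was -0.03 (-0.08 to 0.02). Without Cdc73, the sum was 525 and 480 RPM and the ratio -0.13 (-0.18 to -0.08). The higher reads of Cdc73 and the lower reads of Ctr9, Leo1 and Rtf1 thus nearly offset each other in the total.

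The make-up of these reads, taken from the same counts, shifted towards Cdc73. It took 16.7% (exact binomial 95% interval 15.8 to 17.5) of the reads of the 6 subunits in siCtl and 22.0% (21.02 to 23.05) in siPhf6. Ctr9 took 22.9% (22.0 to 23.9) and 20.7% (19.7 to 21.7), and Rtf1 22.0% (21.1 to 23.0) and 20.3% (19.3 to 21.3). Shares add up to 100%, so a larger share of Cdc73 lowers the others. Of the reads of the 5 other subunits alone, a count made after the values were seen, Ctr9 took 27.5% (26.4 to 28.7) and 26.6% (25.4 to 27.8), and its intervals overlapped. Shares of reads are not shares of molecules, since longer transcripts give more reads.

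**Figure D3:**
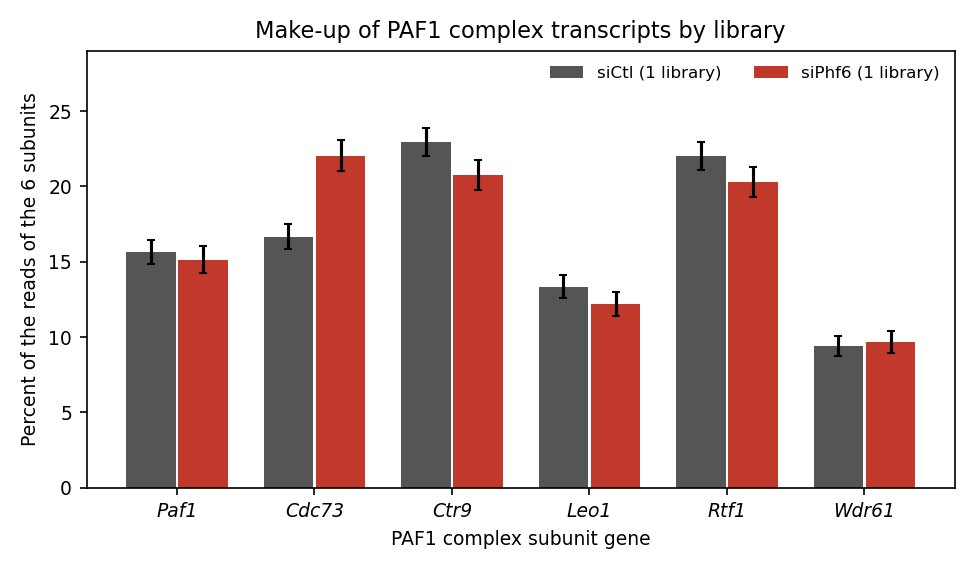
Percent of the reads of the 6 PAF1 complex subunits (vertical axis, from 0) that fell in each subunit gene, in the siCtl and siPhf6 libraries; bars are exact binomial 95% intervals. Cdc73 went from 16.7% to 22.0%, and the intervals of its shares do not overlap; a larger share of 1 gene lowers the others.

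Supt5, the large subunit of DSIF, which holds Pol II at the pause and later helps it along, had 2371 reads in siCtl and 2046 in siPhf6, or 195 and 194 RPM. Its log2 ratio was -0.01 (-0.10 to 0.08). Supt6, the histone chaperone SPT6, had 4029 and 3522 reads, or 331 and 333 RPM, and a ratio of 0.01 (-0.06 to 0.07). These are the genes with the most reads of the 10, and their intervals are the narrowest. The ratio of Supt5 to Supt6 reads was 0.588 in siCtl and 0.581 in siPhf6. Supt6 shares 242 exon bases with Sdf2 on the opposite strand, which was not called (0.12, -0.04 to 0.29).

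Cdk9, the kinase of P-TEFb, had 756 and 637 reads, or 62.2 and 60.3 RPM, a log2 ratio of -0.04 (-0.20 to 0.11). Hexim1, its inhibitor, had 550 and 462 reads, or 45.2 and 43.7 RPM, and a ratio of -0.05 (-0.23 to 0.13). The ratio of inhibitor to kinase reads was 0.728 in siCtl and 0.725 in siPhf6, a change of 0.997 (0.84 to 1.18). A change in this balance within that interval was not detectable at this depth. No stretch of 100 or more bases at 95% identity or above was found between the principal transcript of any of the 10 genes and a transcript elsewhere, apart from Gm44709 and Sdf2, which overlap Supt5 and Supt6 on the other strand. Gm44709 had 0 reads in both libraries.

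Levels of different genes can be set side by side only per length. By the length of the principal transcript, Supt5 (51.9 RPM per kb in siCtl and 51.6 in siPhf6), Supt6 (51.1 and 51.4), Paf1 (49.1 and 46.5) and Wdr61 (45.9 and 46.1) had the highest levels. Leo1 (38.6 and 34.4), Cdk9 (35.9 and 34.8), Ctr9 (33.6 and 29.7) and Rtf1 (29.7 and 26.8) followed, and Leo1 and Cdk9 changed places in siPhf6. Hexim1 (12.9 and 12.5) and Cdc73 (9.05 and 11.7) had the lowest levels. In siCtl the counting intervals of neighbours in this order overlapped from Supt5 to Wdr61 and from Leo1 to Ctr9, and not between the others. In siPhf6 they overlapped between Supt5 and Supt6, Paf1 and Wdr61, Cdk9 and Leo1, Ctr9 and Rtf1, and Hexim1 and Cdc73. With all annotated exons as the length, Wdr61 moved from place 4 to place 9 in siCtl, while Cdc73 stayed last in both libraries, so the order rests in part on which transcripts are made.

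Of 74 other genes of the elongation machinery, 70 were kept, and 2 were called higher and 8 lower in siPhf6, with a median log2 ratio of -0.01. The share called, 14.3%, stands beside 25.9% of all kept genes, and the share called lower, 11.4%, beside 12.4%. Of these, Polr2m and Nelfe had the lowest ratios and Eaf1 the highest. The groups below hold few genes each, and their counts are to be read beside the 13.4% called higher and 12.4% called lower of all kept genes.

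**Figure D4:**
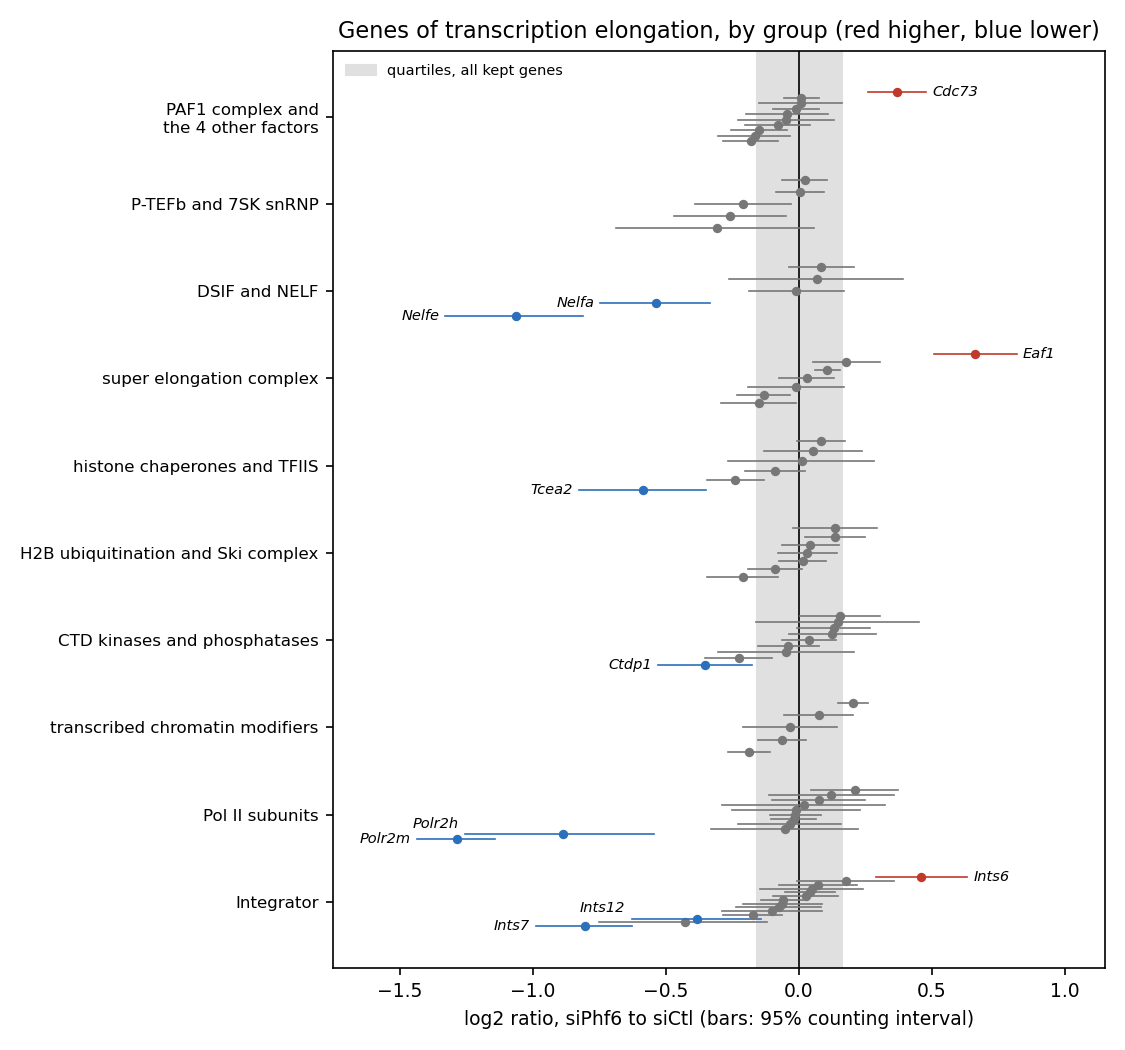
Log2 ratio, siPhf6 over siCtl, on the horizontal axis, for the kept genes of the PAF1 complex and partner factors and of 9 groups of elongation genes (1 gene is left out of the plot), with 95% counting intervals as bars and the quartiles of all kept genes in grey. Polr2m at -1.29 and Nelfe at -1.06 lie furthest to the left, Eaf1 at 0.66 furthest to the right.

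Of the 5 genes of DSIF and NELF, 2 were lower and none higher, beside 12.4% of all kept genes called lower. Nelfe, the RNA-binding subunit of NELF, went from 427 reads in siCtl to 177 in siPhf6, or 35.1 to 16.8 RPM, a log2 ratio of -1.06 (-1.33 to -0.81). Nelfa went from 527 to 315 reads (-0.54, -0.75 to -0.34). The other NELF subunits, Nelfb (0.09, -0.04 to 0.21) and Nelfcd (-0.01, -0.19 to 0.17), were not called, nor was Supt4a (0.07, -0.26 to 0.39), the partner of Supt5. Ratios were thus unequal among the NELF subunit genes. Nelfe reads were 0.376 of those of Nelfb in siCtl and 0.169 in siPhf6, a change of 0.45 (0.37 to 0.55). Nelfe had the lowest log2 ratio of the NELF genes and Nelfb the highest, so this change restates their differences rather than checks them.

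Nelfe starts 180 bases from Skiv2l, on the opposite strand. Skiv2l encodes the helicase of the Ski complex, in which Wdr61 also takes part, and it had a ratio of 0.03 (-0.08 to 0.14). Ttc37, the scaffold of that complex, stood at -0.21 (-0.34 to -0.08) and was not called. None of the 7 genes for H2B ubiquitination and the Ski complex was called; Rnf20, an H2B ligase subunit and the gene of this group with the most reads, stood at 0.01 (-0.07 to 0.10).

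Of 11 kept Pol II subunits, 2 (18.2%) were lower, beside 12.4% of all kept genes. Polr2m, whose product GDOWN1 binds Pol II and takes part in pausing, went from 1475 to 525 reads, or 121 to 49.7 RPM, a log2 ratio of -1.29 (-1.43 to -1.14), lower than 99.8% of kept genes. Polr2h went from 212 to 99 reads (-0.89, -1.25 to -0.54); a stretch of 445 of the 950 bases of its transcript is 98.0% identical to the gene model Gm7511, so its value is uncertain. Polr2a, the catalytic subunit, stood at -0.02 (-0.10 to 0.06). Polr2k and Polr2l had too few reads to be kept.

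None of the 6 other genes of P-TEFb and the 7SK particle was called. The cyclins that pair with CDK9, Ccnt2 (0.02, -0.06 to 0.10) and Ccnt1 (0.00, -0.09 to 0.10), stood near 0 like Cdk9 itself. Hexim2, a paralogue 12703 bases from Hexim1, had 150 and 105 reads (-0.31, -0.69 to 0.06). Larp7 (-0.26, -0.47 to -0.05) and Mepce (-0.21, -0.39 to -0.03), proteins of the 7SK particle, were below 0 by more than counting error but were not called.

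In the super elongation complex, 1 of 7 kept genes was higher. Eaf1, which binds ELL proteins, went from 583 to 802 reads (0.66, 0.51 to 0.82), while Aff4, its scaffold and the gene with the most reads, stood at 0.11 (0.06 to 0.15). Of 6 histone chaperone and TFIIS genes, Tcea2, a TFIIS form that rescues stalled Pol II, was lower (401 to 232 reads, -0.58, -0.83 to -0.35). Ssrp1, a subunit of FACT and the most abundant in reads, stood at 0.08 (-0.01 to 0.17).

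Ctdp1, a phosphatase of the Pol II tail, was called lower among 9 tail kinase and phosphatase genes (661 to 450 reads, -0.35, -0.53 to -0.18), and Cdk13 had the most reads (0.04, -0.06 to 0.14). None of 5 chromatin modifiers of transcribed genes was called, with Dot1l at 0.20 (0.15 to 0.26). Of 14 Integrator genes, whose complex ends transcription of paused Pol II, Ints7 (761 to 378 reads, -0.80, -0.99 to -0.63) and Ints12 (353 to 235, -0.38, -0.63 to -0.14) were lower and Ints6 was higher (510 to 610, 0.46, 0.29 to 0.63). The share called was 21.4% of these genes, beside 25.9% of all kept genes. The calls of Ctdp1 and Ints12 were lost when the counting interval had to lie wholly past 0.25 or a coefficient of variation of 0.05 was assumed. Ints1, the most abundant in reads, stood at -0.06 (-0.14 to 0.02). The Ints7 transcript holds a stretch of up to 145 bases that resembles 38 other genes.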

How the data were processed

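The kit was TruSeq RNA v2. Alignment by the authors was to mm10 with HISAT2; they removed duplicates with samtools and obtained the deposited HTSeq read counts per gene on GENCODE release M9; versions for these mRNA-seq steps are not given in the sources used here. Also named in the submitters' notes is deepTools 3.5.1. The deposited counts are whole reads, unfiltered; HTSeq's totals for reads in no gene (25.3% and 24.1%) and ambiguous reads (1.99% and 2.04%) were left out. Symbols, positions and lengths come from the M21 release of GENCODE (GRCm38, which is mm10), matched on unversioned gene IDs (10114 of 10130 kept genes matched, 16 did not).

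Log2 ratios used counts plus 1 read, scaled by total gene reads. The test was a two-sided exact binomial (scipy 1.17.1), Benjamini-Hochberg adjusted over all kept genes, which was checked on simulated counts. These held counting error only, so the check does not cover spread between cultures. Clopper-Pearson 95% intervals hold for counting alone, because 1 library per group gives no spread between cultures. Without molecular identifiers 2 reads can stem from 1 molecule, so counting error may not be fully covered. Alternatives used edgeR 4.0.16 and DESeq2 1.42.0 for scaling factors only, other filters, added reads, call rules, assumed spreads between cultures, and trends on length or GC content in 20 bins. Members and lists were chosen with earlier results of these data known. Named genes were Phf6, the 10 genes, and in each group up to 3 called genes and that with the most reads; other group genes were named after their values were seen. The values of 1 elongation gene that this rule names are not reported here.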

Additional observations from a re-analysis of the deposited data

How the results depend on the processing

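No paired analysis was possible because each group is 1 library. Of the 12 alternatives, those that ended calls among the 10 genes were the assumed spreads between cultures. With an assumed coefficient of variation of 0.05 or of 0.1, 0 of the 10 genes were called higher, since Cdc73 lost its call; at 0.1, 0 of the 74 other elongation genes were called higher and 2 lower, Nelfe and Polr2m. The 8 lower calls among these genes became 6 at 0.05, 6 with the counting interval wholly past 0.25 and 11 by the log2 ratio alone. Ctdp1 lost its call in 3 alternatives and Ints12 in 4, one of them a minimum of 1 read. With the trend on exon length subtracted, Cdk7 (-0.26) and Larp7 (-0.31) were called lower, and Larp7 was also called lower by the log2 ratio alone. Calls over all kept genes at these spreads were 653 higher and 612 lower at 0.05, and 170 higher and 86 lower at 0.1. With the counting interval required to lie wholly past 0.25, 703 were higher and 669 lower; Cdc73 kept its call. The median of the 10 genes ran from -0.0672 to -0.0462, and Phf6 stayed called lower throughout, at -1.96 to -2.00. Another scaling shifted the median of all kept genes by under 0.1. Leaving out a replicate could not be tried with 1 library per group.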
